A study of Mus musculus with 20 samples.

Results

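Sorted mouse regulatory T (Treg) cells that had been stimulated for 18 h in a farnesyltransferase inhibitor, which the labels call FTI, were compared with cells stimulated for the same time under the label DMSO. The comparison takes 6 of the 20 arrays in the series, 3 of FTI_18h and 3 of DMSO_18h, chosen by the treatment label alone. Its members are all 21928 genes on the array, with 1 probe set kept for each. Of these, 12462 genes lay above the array median on at least 2 arrays and were tested.

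Treg cells are CD4 T cells that hold other immune cells in check, and the transcription factor Foxp3 marks them. FTI_18h cells had FTI for 2 h before stimulation and throughout it, whereas the DMSO_18h labels name no step before stimulation. Both groups were stimulated with IL-2 (200 U/ml) and with anti-CD3 and anti-CD28 at 10 ug/ml, which stand in for antigen and costimulation. The cells of both groups were CD4+YFP+CD44loCD62Lhi cells, called cTreg in the labels, from spleen and pLN of C57BL/6J mice labelled Foxp3YFP-Cre, so controls and treated cells alike carry YFP and Cre at the Foxp3 gene. Further arrays are used below for single comparisons. They are GGTI_18h (2 arrays, a geranylgeranyl transferase inhibitor on the same schedule), FTI_48h and DMSO_48h (3 arrays each, stimulated for 48 h), and DMSO_0h (3 arrays, with no stimulation named). The sources used here give no compound names, doses or ages and sexes of the mice. Whether the arrays of a group come from separate mice or cultures is not stated either, so every p-value below is set by the spread among arrays that may be technical repeats. Each array reads the RNA of many cells, so fewer cells of a kind and less RNA per cell cannot be told apart.

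Farnesyltransferase joins a farnesyl lipid to a cysteine near the end of proteins such as the Ras GTPases, Rheb and the B-type lamins, and the lipid holds these proteins at membranes. The enzyme has an alpha subunit, Fnta, that it shares with geranylgeranyl transferase I, and a beta subunit of its own, Fntb. In T cells, Ras passes the signal of the T cell receptor to the ERK kinases, Rheb switches on the growth kinase complex mTORC1, and PI3K with AKT keeps the FOXO transcription factors out of the nucleus. In resting lymphocytes FOXO factors are nuclear, and with KLF factors they hold genes of survival, homing and quiescence active.

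The arrays agreed closely within each group, at r = 0.9892 to 0.9918 over the genes tested in FTI_18h and 0.9836 to 0.9895 in DMSO_18h, against 0.98 to 0.9902 between FTI_18h and DMSO_18h arrays. DMSO_18h replicate 3 stood apart in its control probes: its negative-control median was 4.937 on the log2 scale, against up to 5.32 on the other DMSO_18h arrays and 5.204 to 5.242 on the FTI_18h arrays. The defining markers of the labelled cells were read in both groups. Foxp3 was at 11.19, 11.20 and 11.21 log2 RMA units in FTI_18h, against 11.24, 11.09 and 11.06 in DMSO_18h, and Il2ra, a chain of the IL-2 receptor, was at 7.10, 7.13 and 7.07, against 7.09, 7.17 and 7.13. Neither passed the test, with log2 fold changes of 0.07 ± 0.07 and -0.03 ± 0.09 (SE, limma). Of all 8 T cell defining markers 7 had positive changes (median 0.18) and 1, Cd3g, was called higher. The summed level of the 8 was 13.659 to 13.700 in FTI_18h and 13.445 to 13.572 in DMSO_18h (log2), which do not overlap, and its part in the results was not tested. On the 3 DMSO_0h arrays Il2ra lay below the negative controls. Of the markers of other cells, 7 of 12 for CD8 T and NK cells lay below the negative controls on every array of both groups (Klrb1c, Ncr1, Klrk1, Klrd1, Klrc1, Gzma and Gzmk). Among 12 myeloid and dendritic markers 6 did so in FTI_18h and 6 in DMSO_18h, with Lyz2, Itgax and Cd14 among them in both, and the summed level of the list was 10.876 to 10.982 in FTI_18h and 10.876 to 10.895 in DMSO_18h (log2). The myeloid gene Cd68 was the only marker outside the T cell lists that passed the test upwards, by 0.45 ± 0.11 (adjusted p = 0.031), a call lost without any 1 of the 6 arrays (adjusted p up to 0.116), and its part in the results was not tested. Of the 5 CD8 T and NK markers tested 3 had positive and 2 negative changes. Cd8b1 was at 0.40 ± 0.11 and was not called (limma adjusted p = 0.0541). Of 10 B cell markers, Cd22 alone lay below the negative controls on every FTI_18h array, and 0 did so on every DMSO_18h array. The 5 B cell markers tested had a median change of 0.23, with 0 called.

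Few genes were called for FTI at 18 h, and most of them were higher. limma called 411 of the 12462 genes tested (3.30%) at an adjusted p under 0.05, of which 326 (2.62%) were higher and 85 (0.682%) lower in FTI_18h than in DMSO_18h. The changes were small: the median was 0.45 on the log2 scale among genes that rose and -0.42 among genes that fell, 84 genes changed at least 1.5-fold and 12 (0.0963%) at least 2-fold. The arrays of the groups did not overlap for 408 of the 411 genes, as they did not for 19.7% of all genes tested. Lack of overlap was also a condition for naming a gene below among the largest changes, so for those genes it adds no support. Over all genes tested the median log2 fold change was 0.0021, with 6307 positive and 6155 negative changes. At an unadjusted limma p under 0.05 there were 2067 of the 12462 genes, 1294 higher and 773 lower. Predicted gene models aside, the largest rises included Tsc22d3, Tsc22d1, Ms4a4b and Il7r, and the largest falls were in Sema7a, Eomes, Tbx21 and Irf8. The count fell to 151, 174, 189 and 192 genes without FTI_18h replicate 1, FTI_18h replicate 3, DMSO_18h replicate 2 and DMSO_18h replicate 3. All 411 kept their direction in each of 14 alternative fits, and 34 of them kept their call in each.

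**Figure D1:**
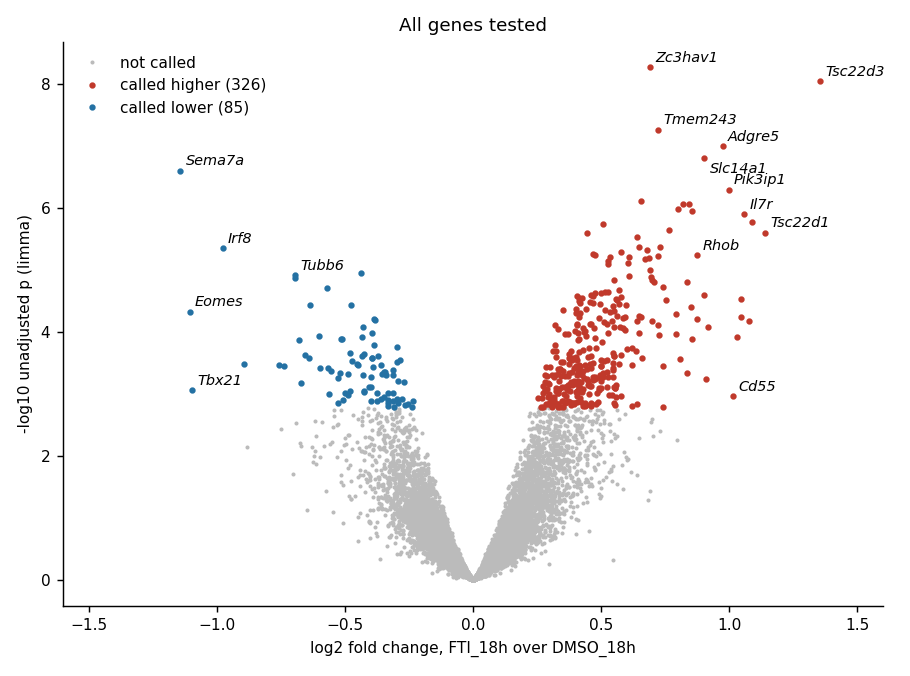
Log2 fold change of FTI_18h over DMSO_18h on the x axis and -log10 of the unadjusted limma p on the y axis for all 12462 genes tested. Red points are the 326 genes called higher and blue points the 85 called lower, and Tsc22d3 at 1.35 and Sema7a at -1.14 lie farthest out on either side.

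Of 20 tested genes that FOXO factors are known to activate, 9 were called higher and 0 lower (11 and 0 at an unadjusted p under 0.05), with a list median of 0.25. Of all genes tested 2.62% were called higher and 0.682% lower, the shares to set beside this and every list below. Klf2, S1pr1, Pik3ip1 and Il7r also belong to lists below, so the counts of these lists are not separate results. Tsc22d3, which encodes the glucocorticoid-induced leucine zipper protein GILZ, was at 8.10, 7.98 and 8.33 log2 RMA units in FTI_18h, against 6.76, 6.70 and 6.89 in DMSO_18h. Every FTI_18h array lay more than a unit above every DMSO_18h array, and the gene was 2.56 times as high (log2 fold change 1.35 ± 0.14, adjusted p = 5.65e-05). Il7r, the receptor through which IL-7 keeps resting T cells alive, was at 8.40, 8.47 and 8.69 in FTI_18h, against 7.67, 7.28 and 7.44 in DMSO_18h. The groups again did not overlap, and the log2 fold change was 1.06 ± 0.15 (adjusted p = 0.00121). Pik3ip1, a membrane protein that holds back PI3K, was at 9.23, 8.90 and 9.07 in FTI_18h, against 8.22, 7.86 and 8.13 in DMSO_18h. It rose by 1.00 ± 0.13 on the log2 scale (adjusted p = 0.000902).

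S1pr1, the receptor that lets lymphocytes leave lymphoid tissue, and Klf2, the factor that activates it, rose with them. S1pr1 was at 9.00, 8.70 and 9.07 log2 RMA units in FTI_18h, against 8.48, 8.12 and 8.20 in DMSO_18h. Klf2 was at 7.70, 7.37 and 7.51, against 6.77, 6.59 and 7.12. The groups did not overlap for either gene, and the log2 fold changes were 0.66 ± 0.13 and 0.70 ± 0.14 (limma adjusted p = 0.00806 and 0.00847). The cell cycle inhibitor Cdkn1b (0.50 ± 0.11), the atypical cyclin Ccng2 (0.41 ± 0.10), the transcriptional coregulator Cited2 (0.41 ± 0.10) and Txnip, an inhibitor of thioredoxin and of glucose uptake (0.39 ± 0.09), also rose, each with an adjusted p of 0.0198 to 0.0245. The number of FOXO targets called was 4 without FTI_18h replicate 1 and 5 without FTI_18h replicate 3, and 3 in a fit to the 6 arrays alone. Klf2 had an adjusted p of 0.0543 without FTI_18h replicate 1, and Cdkn1b, Ccng2, Cited2 and Txnip each lost their call without 3 to 5 of the 6 arrays, with adjusted p-values of up to 0.107. Rbl2, a pocket protein of resting cells, lay just outside the threshold, at 0.28 ± 0.08 (adjusted p = 0.0506).

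**Figure D2:**
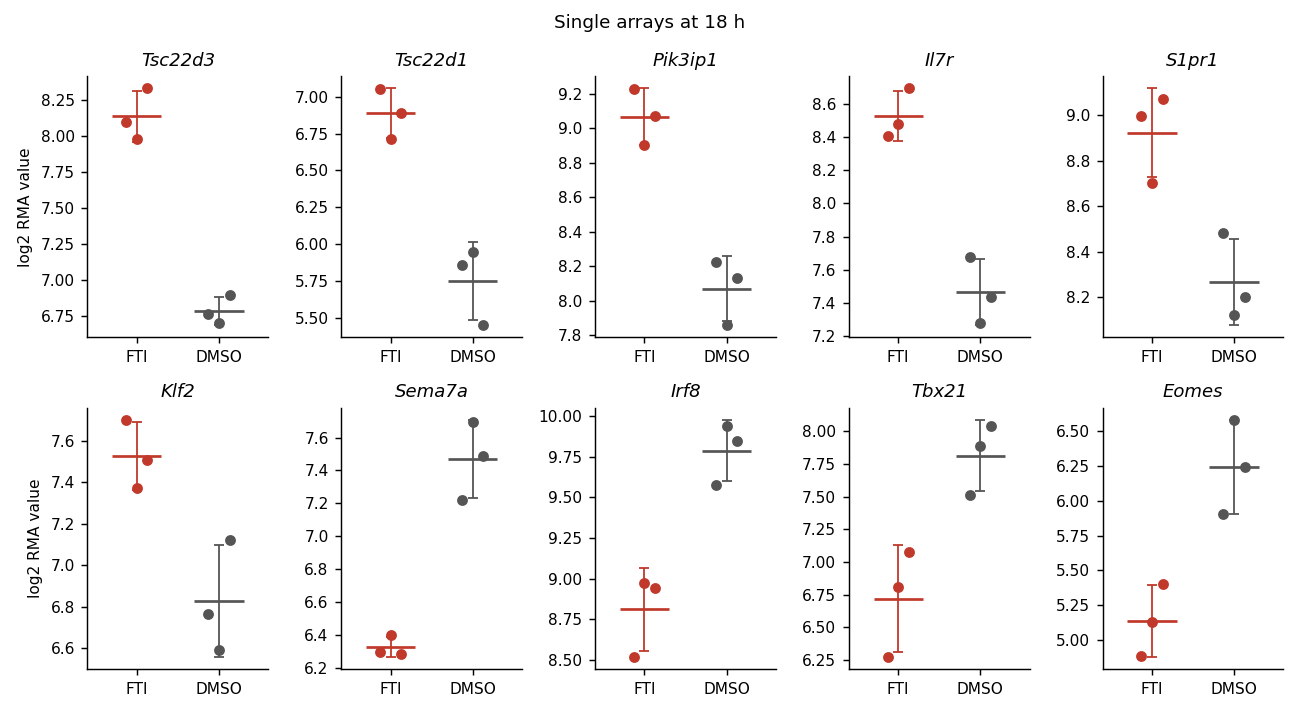
Log2 RMA values of single arrays (points), with the mean (line) and SD (bars, n = 3), for 10 genes in FTI_18h (left) and DMSO_18h (right); each panel has its own y axis, which does not start at 0. Tsc22d3, Tsc22d1, Pik3ip1, Il7r, S1pr1 and Klf2 are higher and Sema7a, Irf8, Tbx21 and Eomes lower on all 3 FTI_18h arrays.

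Promoter sequence was read for genes with a RefSeq entry (GRCm38.p6), as windows of 300 bases that reach from 250 bases before the start to 50 after it. The forkhead letters GTAAACA, on either strand, the core bound by FOXO factors, stood in 14 of 263 promoters of genes called higher (5.32%), in 4 of 71 of genes called lower (5.63%) and in 307 of 9760 of all genes tested (3.15%). In the whole FOXO list they stood in 3 of 15 promoters (20.0%). Of 8 FOXO targets called higher with a window, 1 held the letters, Txnip. Its 250 bases before the start and those of Sfxn3, a mitochondrial serine transporter gene that rose by 0.64 and kept its call in every alternative, are shown because they hold the letters, which are in capitals. The windows lie at chr3:96557707-96557956 (plus strand) for Txnip and chr19:45047326-45047575 (plus strand) for Sfxn3, and the letters begin 121 and 129 bases before the start.
Txnip: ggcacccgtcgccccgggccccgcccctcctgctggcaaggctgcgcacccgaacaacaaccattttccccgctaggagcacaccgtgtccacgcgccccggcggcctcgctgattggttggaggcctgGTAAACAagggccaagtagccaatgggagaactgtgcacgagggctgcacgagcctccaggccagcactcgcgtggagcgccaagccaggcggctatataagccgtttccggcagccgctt
Sfxn3: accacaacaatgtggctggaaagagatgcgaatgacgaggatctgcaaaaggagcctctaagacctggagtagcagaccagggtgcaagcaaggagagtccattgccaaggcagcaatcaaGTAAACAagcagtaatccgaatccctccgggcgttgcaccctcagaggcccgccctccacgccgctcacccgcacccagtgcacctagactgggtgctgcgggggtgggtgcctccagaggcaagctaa
The 7 other called FOXO targets with a window, Klf2, Il7r, Pik3ip1, Tsc22d3, Cdkn1b, Ccng2 and Cited2, had no such letters in it. That says only that these letters are not in this window.

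Of 25 tested regulators of the naive and quiescent state, factors that hold lymphocytes at rest, 5 were called higher and 0 lower (median 0.18), where 2.62% and 0.682% of all genes tested were. Of the 5, which include Klf2 from the FOXO list, 4 belong to the Kruppel-like family. Klf3, a repressor, was at 8.05, 7.75 and 8.18 log2 RMA units in FTI_18h, against 7.36, 7.27 and 6.84 in DMSO_18h, without overlap. It rose by 0.84 ± 0.14 on the log2 scale (adjusted p = 0.00432). Klf7 rose by 0.61 ± 0.10, Klf6 by 0.44 ± 0.07 and the antiproliferative gene Btg2 by 0.43 ± 0.10. The Klf6 arrays were tight, at 9.73, 9.67 and 9.77 in FTI_18h against 9.25, 9.27 and 9.31 in DMSO_18h. Among all Klf genes, a family picked after its values were seen, 4 of 10 tested were higher and 0 lower. The quiescence list had 3 members called without FTI_18h replicate 1 and 0 in the fit to the 6 arrays alone (adjusted p = 0.0555 to 0.107), and Btg2 lost its call without 4 of the 6 arrays (adjusted p up to 0.0984).

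Genes listed as brakes on PI3K and AKT signalling were called in 4 of 16 tested cases, all higher (median 0.16), where 2.62% of all genes tested were higher. Besides Pik3ip1, the lipid phosphatase Inpp4b rose by 0.38 ± 0.09, Trat1 by 0.57 ± 0.13 and Trib2 by 0.47 ± 0.11. Trat1 and Trib2 are no plain brakes: Trat1 is an adaptor of the T cell receptor that can bind PI3K, and Trib2 is a pseudokinase known in human tumour cells to restrain FOXO. Of these only Pik3ip1 kept its call without DMSO_18h replicate 2, DMSO_18h replicate 3, FTI_18h replicate 1 or FTI_18h replicate 3. In each of those 4 fits, and in the fit to the 6 arrays alone, the list had 1 member called.

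Receptors for homing and egress from lymphoid tissue were higher in 4 of 16 tested genes and lower in 0 (median 0.10), where 2.62% and 0.682% of all genes tested were. Besides S1pr1 these were Cxcr4, the receptor for the chemokine Cxcl12, Itga4, an integrin chain used to cross vessel walls, and S1pr4. Cxcr4 was at 8.14, 7.59 and 8.29 log2 RMA units in FTI_18h, against 7.55, 6.96 and 7.29 in DMSO_18h. Its lowest FTI_18h array was barely above its highest DMSO_18h array, and the log2 fold change was 0.74 ± 0.17 (adjusted p = 0.0219). Itga4 rose by 0.52 ± 0.09 and S1pr4 by 0.41 ± 0.11. Cxcr4 lost its call without 4 and S1pr4 without 5 of the arrays (adjusted p up to 0.111 and 0.187). The number of homing receptors called was 2 without DMSO_18h replicate 2, FTI_18h replicate 1 or FTI_18h replicate 3, and 0 in the fit to the 6 arrays alone, where S1pr1 had an adjusted p of 0.0892 and Itga4 of 0.0958.

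Of 7 tested chemokine receptors, which guide T cells to tissues, Ccr4, Ccr6 and Cxcr4 were called higher and 0 lower, with a list median of 0.06. Of all genes tested 2.62% were called higher, and Cxcr4 was already counted among the homing receptors. Ccr4, a receptor linked to migration into skin, was at 8.65, 8.53 and 8.58 log2 RMA units in FTI_18h, against 7.73, 7.66 and 7.76 in DMSO_18h. Ccr6, the receptor for Ccl20, was at 8.18, 8.14 and 8.01, against 7.47, 7.55 and 7.59. Both groups of arrays were tight and far apart, with log2 fold changes of 0.87 ± 0.17 and 0.57 ± 0.10 (limma adjusted p = 0.00812 and 0.00638), and both calls held in every alternative. Among 14 receptors of the common gamma chain and gp130 families, Il7r, the IL-6 receptor Il6ra (0.46 ± 0.12) and its partner Il6st (0.29 ± 0.08) rose and 0 fell. Il6ra lost its call without any 1 of the 6 arrays and Il6st without any 1 of 5 of them, and in those 5 fits Il7r was the 1 receptor called.

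Several of the largest rises lie outside these groups. Tsc22d1, a relative of Tsc22d3, was at 7.06, 6.72 and 6.89 log2 RMA units in FTI_18h, against 5.85, 5.94 and 5.45 in DMSO_18h, and rose by 1.14 ± 0.17 (adjusted p = 0.00178). Adgre5, the adhesion receptor CD97, was at 10.14, 10.04 and 10.09, against 9.01, 9.30 and 9.03, and rose by 0.98 ± 0.11 (adjusted p = 0.000316). Slc14a1, a urea transporter, was at 9.90, 9.94 and 9.88, against 8.88, 9.08 and 9.04, and rose by 0.90 ± 0.11 (adjusted p = 0.000391). None of these genes overlapped between the groups, as the rule for naming the largest changes required. The amino acid transporter subunit Slc3a1 (1.05 ± 0.19), the nucleoside transporter Slc28a2b (1.03 ± 0.21), Akap7, an anchor of protein kinase A (0.92 ± 0.18), the adhesion molecule Selp (0.91 ± 0.22), Tbc1d30 (0.86 ± 0.12), the protease Capn3 (0.85 ± 0.16), the histone gene H2bc4 (0.84 ± 0.12) and Crebrf (0.84 ± 0.20) followed. Cd55, which shields cells from complement, was at 5.49, 5.65 and 5.94 in FTI_18h, against 5.33, 4.89 and 3.82 in DMSO_18h. Its DMSO_18h mean was at or below the negative controls, so background limits the size, and without DMSO_18h replicate 3 its log2 fold change was 0.59 (adjusted p = 0.134). Slc28a2b lost its call without DMSO_18h replicate 3 or FTI_18h replicate 1 (adjusted p = 0.0668 and 0.0552). Crebrf lost it without DMSO_18h replicate 3, FTI_18h replicate 1 or FTI_18h replicate 3 (adjusted p = 0.0837 to 0.105), and Selp without 4 of the arrays, the highest adjusted p being 0.118 without FTI_18h replicate 3. Akap7 lost it without DMSO_18h replicate 2 (adjusted p = 0.0528).

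Further calls lay in 2 gene families of lymphocytes, both picked after their values were seen. All 8 Gimap genes tested, GTPases of lymphocyte survival, had positive changes of 0.23 to 0.71, and 4 were called higher: Gimap4 (0.71 ± 0.12), Gimap9 (0.38 ± 0.08), Gimap3 (0.38 ± 0.08) and Gimap8 (0.35 ± 0.08). Gimap4 was at 10.78, 10.82 and 10.92 log2 RMA units in FTI_18h, against 10.47, 10.20 and 9.72 in DMSO_18h, so its arrays did not overlap and the spread was in DMSO. Of the 7 Ms4a genes tested, a family of membrane proteins, all had positive changes and 4 were called: Ms4a4b (1.08 ± 0.21), Ms4a4c (0.69 ± 0.11), Ms4a6c (0.59 ± 0.12) and Ms4a6b (0.48 ± 0.10). Ms4a4b, which is known to restrain T cell proliferation in mice, was at 9.20, 8.98 and 9.04 in FTI_18h, against 8.38, 8.04 and 7.57 in DMSO_18h. Without DMSO_18h replicate 3, the lowest of these, its change was 0.86 and its call was lost (adjusted p = 0.0511). Gimap3, Gimap8, Gimap9, Ms4a6b and Ms4a6c lost their calls without 2 to 4 of the arrays (adjusted p up to 0.125).

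The genes of the inhibited pathway itself gave few calls. Of 16 genes for prenyl transferases and the later processing of prenylated ends, limma called 0 (2 had an unadjusted p under 0.05), with a median of 0.0006. With 3.30% of all genes tested called, 0 of 16 does not set these genes apart. Fnta was at 7.51, 7.65 and 7.66 log2 RMA units in FTI_18h, against 7.52, 7.70 and 7.51 in DMSO_18h, and Fntb at 6.83, 6.76 and 6.74, against 6.50, 6.88 and 6.76. The arrays overlapped, with log2 fold changes of 0.03 ± 0.13 and 0.06 ± 0.16. The geranylgeranyl transferase subunit Pggt1b was at 0.24 ± 0.12 and the Rab transferase subunit Rabggtb at -0.34 (adjusted p = 0.321 and 0.0886). Of 20 tested genes whose proteins are farnesylated, 2 rose and 0 fell. Rhob, a GTPase that can carry a farnesyl or a geranylgeranyl group, was at 7.65, 7.22 and 7.67 in FTI_18h, against 6.41, 6.79 and 6.71 in DMSO_18h, and rose by 0.88 ± 0.14 (adjusted p = 0.00253). Ptp4a3, a phosphatase, rose by 0.33 ± 0.07 (adjusted p = 0.00985). Neither was called in the fit to the 6 arrays alone (adjusted p = 0.0571 and 0.117). The Ras genes Hras and Nras were at -0.01 ± 0.08 and 0.15 ± 0.14, Rheb at 0.03 ± 0.09 and the lamins Lmnb1 and Lmnb2 at -0.08 ± 0.10 and -0.07 ± 0.15, and none of these 5 genes passed the test.

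The smallest p of all belonged to Zc3hav1, an antiviral RNA-binding protein whose long form is farnesylated in human cells, a gene singled out after its value was seen and not on the list above. It was at 10.17, 10.26 and 10.23 log2 RMA units in FTI_18h, against 9.58, 9.46 and 9.54 in DMSO_18h. Both groups spanned little and lay well apart, with a log2 fold change of 0.69 ± 0.07 (adjusted p = 5.65e-05), and the call held in every alternative.

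Downstream of Ras, transcript levels of ERK output genes gave no calls. limma called 0 of 18 tested (1 at an unadjusted p under 0.05), with a median of -0.07, and 13 changes were negative. With 3.30% of all genes tested called, 0 of 18 does not set this list apart. For 3 of the 18 every FTI_18h array lay below every DMSO_18h array, as for 7.75% of all genes tested, and for 0 above. The ERK inhibitors Spry1 and Spry2 were at -0.31 ± 0.13 and -0.41, the phosphatase Dusp4 at -0.25, the factor Etv5 at 0.23 and Myc at 0.15 ± 0.26, and none passed the test. Of 22 tested regulators and effectors of Ras 2 were called higher and 0 lower: Rassf2, a Ras effector that slows growth, by 0.47 ± 0.07, and Rgl2, an activator of the GTPase Ral, by 0.31 ± 0.08. Rassf2 was at 8.93, 8.99 and 9.09 log2 RMA units in FTI_18h, against 8.59, 8.58 and 8.43 in DMSO_18h. Rgl2 lost its call without any 1 of the 6 arrays (adjusted p = 0.0696 to 0.178), and Rassf2 kept its call in each of those fits, but the fit to the 6 arrays alone called 0 of the list.

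Treg identity genes gave 1 call, and a list of this size cannot tell that from the share of all genes tested. Of 18 tested identity genes 1 rose and 0 fell, where 2.62% of all genes tested were called higher and 0.682% lower. The gene that rose was Nt5e, the ectoenzyme CD73 that makes adenosine, by 0.43 ± 0.10. It was at 9.55, 9.49 and 9.43 log2 RMA units in FTI_18h, against 9.10, 8.97 and 9.10 in DMSO_18h. Its adjusted p was 0.0264, and its call was lost without any 1 of 5 of the arrays, the highest adjusted p being 0.111 without FTI_18h replicate 1. Of 22 effector Treg genes 1 rose, Ccr4, and 0 fell, which is likewise not set apart from the share of all genes tested. The checkpoint receptors Ctla4 and Tigit were at 0.18 ± 0.10 and 0.20 ± 0.15, the costimulator Icos at 0.12 ± 0.11, the factor Irf4 at 0.28 ± 0.29, the activation marker Cd44 at -0.32 ± 0.12 and the checkpoint receptor Pdcd1 at -0.38, and none of them passed the test. The error of Irf4 is pooled over all 20 arrays and holds its wide spread in DMSO_0h (SD 1.02). At 18 h its arrays were tight and did not overlap, at 10.30, 10.30 and 10.19 in FTI_18h against 9.99, 9.98 and 9.98 in DMSO_18h. Such a gap was seen for 19.7% of all genes tested. Slamf6, a receptor of less differentiated T cells, was at 10.26, 10.34 and 10.14 in FTI_18h, against 9.71, 9.86 and 9.26 in DMSO_18h, and rose by 0.63 ± 0.14, a call lost without 3 of the arrays (adjusted p up to 0.0745). Further small rises were called in Prkcq (0.33 ± 0.08) and Cd3g (0.27 ± 0.07) of the T cell receptor pathway, in the survival genes Bcl2 (0.38 ± 0.10) and Traf1 (0.53 ± 0.08), in the NF-kappaB partner Bcl3 (0.42 ± 0.11) and in the autophagy gene Map1lc3b (0.32 ± 0.07). Of these, only the Traf1 call was kept without each of the arrays, and Cd3g lay just inside the threshold with an adjusted p of 0.0497.

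**Figure D3:**
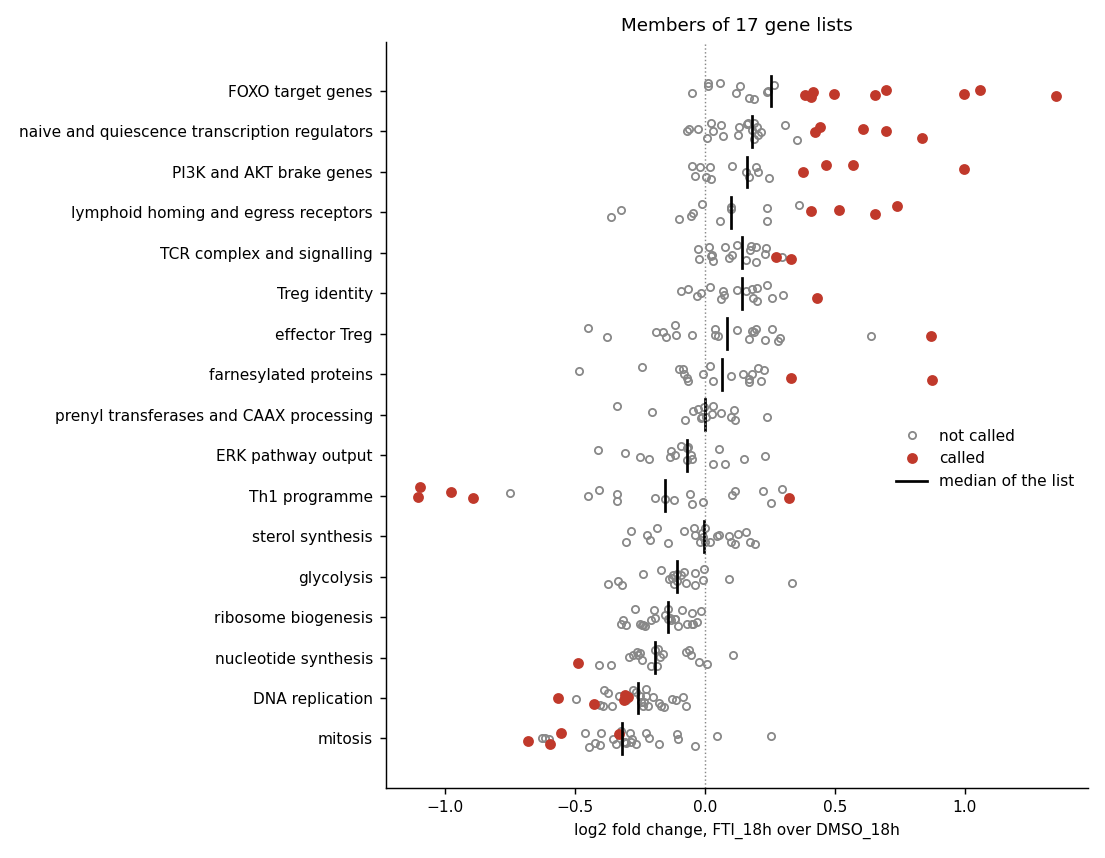
Log2 fold change of FTI_18h over DMSO_18h for each tested member of 17 gene lists (points, spread vertically only for legibility), with called genes filled in red and the median of each list as a black line. FOXO targets have 9 filled points to the right and DNA replication 5 to the left, while ERK output, ribosome biogenesis and glycolysis have none.

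Genes of the Th1 programme held several of the largest falls. Of 21 tested Th1 genes 4 were lower (0.682% of all genes tested were) and 1 was higher, with a median of -0.15. Tbx21, the T-bet factor that directs Th1 cells and Th1-like Treg cells, was at 6.27, 6.81 and 7.07 log2 RMA units in FTI_18h, against 7.51, 7.89 and 8.04 in DMSO_18h. Eomes, its relative, was at 4.88, 5.13 and 5.40, against 5.91, 6.58 and 6.24. Both sets of arrays were separate but wide, with log2 fold changes of -1.10 ± 0.27 and -1.11 ± 0.21 (limma adjusted p = 0.0346 and 0.00728). Background limits the size for Eomes, whose FTI_18h mean was at or below the negative controls. Irf8, a factor of the interferon response, was at 8.52, 8.97 and 8.94 in FTI_18h, against 9.58, 9.94 and 9.85 in DMSO_18h, and fell by 0.98 ± 0.15 (adjusted p = 0.00252). The chemokine gene Ccl4 was at 6.12, 6.56 and 6.68, against 7.10, 7.49 and 7.45, and fell by 0.89 ± 0.20. Ifngr2, a chain of the interferon-gamma receptor, was the gene called higher, by 0.32 ± 0.07, and lost its call without 3 of the arrays (adjusted p up to 0.0779). Eomes is also the 1 gene called lower on the list of CD8 T and NK cell markers, whose summed level was 10.101 to 10.237 in FTI_18h and 10.079 to 10.304 in DMSO_18h (log2). Ifng itself lay at or below the negative controls in both groups. Without DMSO_18h replicate 2, DMSO_18h replicate 3 or FTI_18h replicate 1 the list had 2 members called lower: Tbx21 then had an adjusted p of 0.102, 0.126 and 0.167, and Ccl4 of 0.0819, 0.0775 and 0.112. In the fit to the 6 arrays alone Irf8 was the 1 member called.

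Sema7a, a membrane semaphorin of activated T cells, fell most of all genes tested. It was at 6.30, 6.40 and 6.28 log2 RMA units in FTI_18h, against 7.22, 7.69 and 7.49 in DMSO_18h. The FTI_18h arrays spanned little, and the gene fell to 0.453 of its DMSO_18h level (log2 fold change -1.14 ± 0.14, adjusted p = 0.000518). Tubb6, a beta-tubulin, was at 6.45, 6.43 and 6.45, against 7.02, 7.06 and 7.34, and fell by 0.70 ± 0.12 (adjusted p = 0.00397). Lta and Tnfsf11, cytokines of the TNF family that shape lymphoid tissue and bone, fell by 0.40 ± 0.10 and 0.48 ± 0.12, the 2 calls among 21 tested TNF family genes. Each TNF call was lost without at least 4 of the 6 arrays, and without DMSO_18h replicate 2, DMSO_18h replicate 3, FTI_18h replicate 2 or FTI_18h replicate 3 the list had 0. The adhesion molecule Epcam (-0.64 ± 0.14), the growth factor Nrg1 (-0.56 ± 0.14) and the chaperone Hsph1 (-0.42 ± 0.11) were lower too, though each lost its call without 3 to 5 of the arrays (adjusted p up to 0.169). Galnt3, a glycosyltransferase gene, was called lower, but both of its means lay at or below the negative controls.

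Genes of DNA replication leaned down as a group. All 30 tested had negative changes, as had 6155 of all 12462 genes tested, and the list median was -0.26. Of the 30, 5 were called lower (0.682% of all genes tested were): Cdc45 (-0.57 ± 0.13) and Mcm3 (-0.31 ± 0.08) and Mcm5 (-0.31 ± 0.08), parts of the helicase that opens the double strand, Pola1 (-0.43 ± 0.08), the polymerase that starts new strands, and Lig1 (-0.30 ± 0.08), which joins them. Cdc45 was at 7.31, 7.59 and 7.83 log2 RMA units in FTI_18h, against 7.88, 8.29 and 8.26 in DMSO_18h, a narrow gap. Pola1 was at 9.33, 9.40 and 9.36, against 9.76, 9.91 and 9.70, and the groups were well apart (adjusted p = 0.00937). The number called in this list moved with single arrays. It was 0 without DMSO_18h replicate 2, 1 without DMSO_18h replicate 3, 1 without FTI_18h replicate 1, 2 without FTI_18h replicate 3, 3 without FTI_18h replicate 2 and 9 without DMSO_18h replicate 1, and 0 in the fit to the 6 arrays alone. Outside the list, Hells, a chromatin remodeller of dividing cells, fell by 0.63 ± 0.12 (adjusted p = 0.00643) and held without each of the arrays. The nucleotide enzyme Rrm2, the limiting subunit of ribonucleotide reductase, fell by 0.49 ± 0.11, the 1 call among 21 nucleotide synthesis genes, of which 19 had negative changes; its call was lost without 4 of the arrays (adjusted p up to 0.134). Skp2, which marks the inhibitor encoded by Cdkn1b for breakdown, fell by 0.44 ± 0.07 (adjusted p = 0.00377).

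The letters TTTNNCGC, a core of sites for E2F, the factors that switch on replication genes, were counted on both strands of the same promoter windows. They stood in 12 of 71 promoters of genes called lower (16.9%), in 20 of 263 of genes called higher (7.60%) and in 942 of 9760 of all genes tested (9.65%). In the replication list they stood in 14 of 24 promoters, and in those of 4 of the 5 called members, Mcm3, Mcm5, Pola1 and Lig1. In the mitosis list they stood in 2 of 26 promoters (7.69%) and in 0 of its 4 called members. The 250 bases before the start of Mcm5, Pola1 and Hells are printed because these genes fell and hold the letters there. The capitals mark the letters on either strand; in Mcm5 a match on each strand overlaps the other. The windows lie at chr8:75109259-75109508 (plus strand) for Mcm5, chrX:93632156-93632405 (minus strand) for Pola1 and chr19:38930740-38930989 (plus strand) for Hells, and the letters begin 153, 138 and 62 bases before the start.
Mcm5: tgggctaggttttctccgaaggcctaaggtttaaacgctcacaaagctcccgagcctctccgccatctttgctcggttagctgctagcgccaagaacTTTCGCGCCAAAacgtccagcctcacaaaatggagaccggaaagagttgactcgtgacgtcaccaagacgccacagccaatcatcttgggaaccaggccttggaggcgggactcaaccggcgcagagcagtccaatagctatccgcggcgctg
Pola1: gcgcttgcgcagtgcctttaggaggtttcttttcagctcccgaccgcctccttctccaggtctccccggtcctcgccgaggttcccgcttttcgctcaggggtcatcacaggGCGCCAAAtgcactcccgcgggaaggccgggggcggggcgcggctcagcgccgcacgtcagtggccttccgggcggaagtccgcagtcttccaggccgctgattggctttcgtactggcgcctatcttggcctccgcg
Hells: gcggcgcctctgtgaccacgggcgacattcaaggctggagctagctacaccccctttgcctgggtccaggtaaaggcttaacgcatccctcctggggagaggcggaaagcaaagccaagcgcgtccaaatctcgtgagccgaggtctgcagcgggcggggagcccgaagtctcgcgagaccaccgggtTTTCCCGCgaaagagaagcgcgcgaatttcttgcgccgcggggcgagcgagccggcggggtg
A match is a description of the sequence and no measured site.

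Mitosis genes and histone genes leaned the same way. Of 30 tested mitosis genes 28 had negative changes, as had 6155 of all 12462 genes tested, and the list median was -0.32. Of the 30, 4 were called lower (0.682% of all genes tested were): Nuf2, a kinetochore protein (-0.68 ± 0.14), Ccnf, a cyclin that marks proteins for breakdown (-0.60 ± 0.14), the topoisomerase Top2a (-0.55 ± 0.13) and the survivin gene Birc5 (-0.33 ± 0.09). Nuf2 was at 6.58, 6.78 and 6.95 log2 RMA units in FTI_18h, against 7.22, 7.44 and 7.69 in DMSO_18h, without overlap (adjusted p = 0.0122). The proliferation marker Mki67 did not pass the test (-0.18 ± 0.12). The list had 0 called without DMSO_18h replicate 3 or FTI_18h replicate 1, 1 without DMSO_18h replicate 2 and 2 without FTI_18h replicate 2 or FTI_18h replicate 3, and 0 in the fit to the 6 arrays alone. Further division genes among the largest falls were Sgo2a, which guards sister chromatids (-0.67 ± 0.16), Cip2a, an inhibitor of the phosphatase PP2A (-0.66 ± 0.14), the DNA translocase Ercc6l (-0.60 ± 0.12), the repair gene Fanci (-0.57 ± 0.10) and the centriole gene Cep76 (-0.53 ± 0.13). Of these, Fanci kept its call without each of the arrays, and the other 4 lost theirs without 2 to 4 of them (adjusted p up to 0.152). Of 50 tested H2A, H2B, H3 and H4 genes of the histone clusters, a family picked after its values were seen, 47 had negative changes, 5 were called lower and 1 higher. Of all genes tested 0.682% were called lower and 2.62% higher. The lowest was H2bc18, at 8.65, 8.67 and 8.49 in FTI_18h against 9.26, 9.45 and 9.18 in DMSO_18h (-0.69 ± 0.12, adjusted p = 0.00409). The higher was H2bc4, at 8.43, 8.17 and 8.24, against 7.50, 7.57 and 7.24. Near-identical histone genes share probe sequence, so single members of this family are uncertain.

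Apart from nucleotide synthesis, the growth and metabolism lists gave no calls. limma called 0 of 26 ribosome biogenesis genes, although all 26 had negative changes and 9 an unadjusted p under 0.05, among them Wdr43 (-0.25, adjusted p = 0.0782) and Utp20 (-0.32, adjusted p = 0.104). It called 0 of 20 glycolysis genes (1 unadjusted), 0 of 24 sterol synthesis genes (2), 0 of 12 fatty acid genes (2), 0 of 10 amino acid transporters (2) and 0 of 15 ATF4 stress genes (2). Among all 12462 genes tested, 2067 had an unadjusted p under 0.05, 6155 had a negative change and 411 (3.30%) were called. At that share, 0 calls in a list of 10 to 26 genes does not set the list apart. The glycolysis regulator Pfkfb3 was at -0.33, the glucose transporter Slc2a3 at 0.33 and the amino acid transporter Slc7a5 at -0.24, and none passed the test. Interferon stimulated genes had 0 calls among 13 tested (2 unadjusted).

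At 48 h a separate set of arrays, FTI_48h against DMSO_48h, shows how these genes fared later. limma called 955 genes there (7.66%), 571 higher (4.58%) and 384 lower (3.08%). The count was 524, 525, 588 and 607 without FTI_48h replicate 1, DMSO_48h replicate 2, DMSO_48h replicate 3 and FTI_48h replicate 3. Of the 326 genes higher at 18 h, 186 were called higher at 48 h (57.1% of the 18 h calls and 32.6% of the 48 h calls) and 0 were called lower, while 310 had a positive change. Of the 85 genes lower at 18 h, 24 were called lower at 48 h (28.2% and 6.25%) and 0 higher. Tsc22d3 rose by 0.57, Il7r by 0.83, Pik3ip1 by 1.21, S1pr1 by 1.12 and Klf2 by 0.65 at 48 h, all called. Tsc22d1 was at 0.43 and was not (adjusted p = 0.138). Of the division genes, Nuf2 was at -0.14, Cdc45 at -0.24, Pola1 at -0.04 and Top2a at -0.16 at 48 h, and none passed the test there, though the difference between the times was not called for any of these 4 genes (adjusted p = 0.251 to 0.651).

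The test of the time difference itself called 54 genes (0.433%), and between 28 and 35 without FTI_48h replicate 1, DMSO_48h replicate 3, FTI_48h replicate 3, FTI_18h replicate 1 or FTI_18h replicate 3. Sema7a was at 6.38, 6.49 and 6.22 log2 RMA units in FTI_48h, against 8.79, 8.81 and 8.66 in DMSO_48h, a change of -2.39 ± 0.14 that exceeded that at 18 h by 1.25 ± 0.20 (difference -1.25, adjusted p = 0.00494). The FTI_48h values lay near those of FTI_18h, and the DMSO_48h values lay above those of DMSO_18h. Eomes was at 4.74, 4.89 and 4.79 in FTI_48h, against 8.01, 8.56 and 7.96 in DMSO_48h, and its difference was -2.26 ± 0.29 (adjusted p = 0.000591). Its FTI means were at or below the negative controls at both times, so background limits the size of each fall and of the difference. Slc14a1 was at 10.16, 10.10 and 10.29, against 8.65, 8.37 and 8.41, a rise that was larger than at 18 h by 0.80 ± 0.15 (adjusted p = 0.0236). Adgre5 went the other way, at 9.27, 9.14 and 9.59 in FTI_48h against 9.56, 9.24 and 9.27 in DMSO_48h. These arrays overlapped, and the difference was -0.995 ± 0.16 (adjusted p = 0.00505). Klf6 behaved alike, with a change of -0.11 at 48 h and a difference of -0.55 ± 0.09 (adjusted p = 0.00689).

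**Figure D4:**
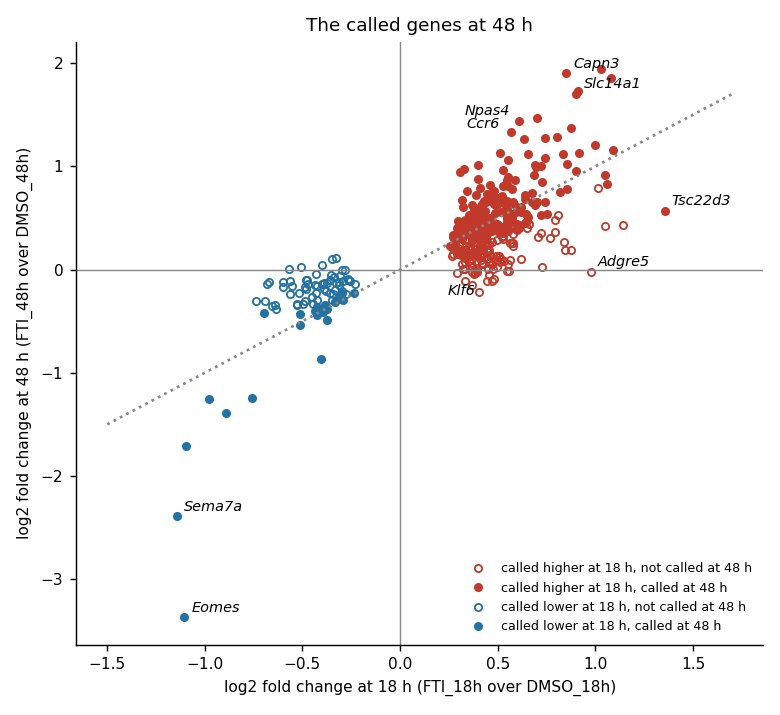
Log2 fold changes of the 411 genes called at 18 h (FTI_18h over DMSO_18h, x axis) against those at 48 h (FTI_48h over DMSO_48h, y axis), where the times share no arrays; filled points were also called at 48 h and the dotted line marks equal values. Of 326 red genes 310 lie above 0 at 48 h and of 85 blue genes 80 lie below it, while Adgre5 and Klf6 lie near 0.

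In DMSO culture without an inhibitor, most of the same genes moved the other way with time. Between DMSO_48h and DMSO_0h, which share no array with the 18 h comparison, limma called 74.7% of all genes tested, 38.5% higher and 36.2% lower. The control probes of these groups differed, with negative-control medians of 5.583 to 5.666 in DMSO_0h and 5.17 to 5.192 in DMSO_48h (log2). The part of this shift in the calls was not tested. Of the 326 genes higher in FTI_18h, 236 (72.4%) were lower in DMSO_48h than in DMSO_0h and 48 were higher. Of the 85 genes lower in FTI_18h, 81 (95.3%) were higher in DMSO_48h. Tsc22d3, Pik3ip1, Il7r, S1pr1 and Klf2 were lower there by log2 fold changes of -3.41, -3.23, -2.31, -3.27 and -2.29, and Tbx21, Irf8 and Sema7a were higher by 4.11, 3.51 and 2.65. The DMSO_0h arrays had Tsc22d3 at 9.48, 9.68 and 9.63 log2 RMA units, above all FTI_18h arrays, and Irf8 at 6.98, 6.69 and 6.84, below all of them. Ccr4 and Ccr6 did not follow this pattern, since both were higher in FTI_18h and also higher in DMSO_48h than in DMSO_0h, by 2.62 and 0.87.

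Against GGTI, the inhibitor of the related enzyme, the direct comparison of FTI_18h with GGTI_18h called 285 genes (2.29%), 115 higher (0.923%) and 170 lower (1.36%) in FTI_18h. Of the 326 genes that FTI raised, 23 were higher and 13 lower in FTI_18h than in GGTI_18h, and of the 85 that it lowered, 18 were lower and 0 higher. The same FTI_18h arrays served to pick these genes, so the tilt of these counts is partly set by the choice and is not independent evidence. Slc14a1 was at 9.90, 9.94 and 9.88 log2 RMA units in FTI_18h, against 8.85 and 8.73 in GGTI_18h, which was close to DMSO_18h. It was higher in FTI_18h by 1.12 ± 0.12 (adjusted p = 8.73e-05). Npas4, an activity-induced transcription factor, was at 6.86, 7.02 and 6.93 in FTI_18h, against 5.80 and 5.91 in GGTI_18h (1.09 ± 0.11, adjusted p = 5.22e-05). It was at 6.27, 6.50 and 6.22 in DMSO_18h, between the inhibitors. Ccr6 (0.97 ± 0.12), Sla, an adaptor that dampens T cell receptor signals (0.89 ± 0.09), and Tmem243 (0.61 ± 0.09) were also higher in FTI_18h than in GGTI_18h.

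Rhob and division genes differed in the other direction. Rhob was at 7.65, 7.22 and 7.67 log2 RMA units in FTI_18h, against 8.65 and 8.88 in GGTI_18h, and the difference was -1.25 ± 0.15 (adjusted p = 0.000217). The phosphatase gene Cdc25b was at 7.45, 7.54 and 7.53, against 8.40 and 8.42 (-0.90 ± 0.10). Unlike the division genes that follow, Cdc25b was called higher in FTI_18h than in DMSO_18h, by 0.44 ± 0.09 (limma adjusted p = 0.0113). That call was lost without DMSO_18h replicate 2 (adjusted p = 0.0513). Foxm1, a driver of mitotic genes, was at 8.35, 8.40 and 8.42, against 9.15 and 9.28 in GGTI_18h (-0.83 ± 0.09, adjusted p = 8.73e-05), with 8.59, 8.78 and 8.87 in DMSO_18h. Birc5 (-0.74 ± 0.10), Fanci (-0.80 ± 0.11), Ccnf (-0.85 ± 0.15) and Cip2a (-0.81 ± 0.16) were lower in FTI_18h than in GGTI_18h too. For Tsc22d3, Il7r, Pik3ip1 and S1pr1 the direct comparison gave -0.50 ± 0.15, -0.22 ± 0.17, 0.03 ± 0.15 and -0.28 ± 0.14, and none was called (adjusted p = 0.102 to 0.963). GGTI_18h against DMSO_18h called 5.94% of all genes tested, 3.86% higher and 2.08% lower. Against these shared DMSO_18h arrays, the changes of the 4 genes were 1.35, 1.06, 1.00 and 0.66 in FTI_18h and 1.86, 1.28, 0.97 and 0.94 in GGTI_18h. Tbx21 was at 6.27, 6.81 and 7.07 in FTI_18h, against 5.96 and 5.30 in GGTI_18h, and this difference of 1.09 ± 0.31 was not called (adjusted p = 0.0726). With 2 arrays in GGTI_18h the count of 285 became 70 without its replicate 1 and 113 without its replicate 2, and it was 183 without FTI_18h replicate 3.

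**Figure D5:**
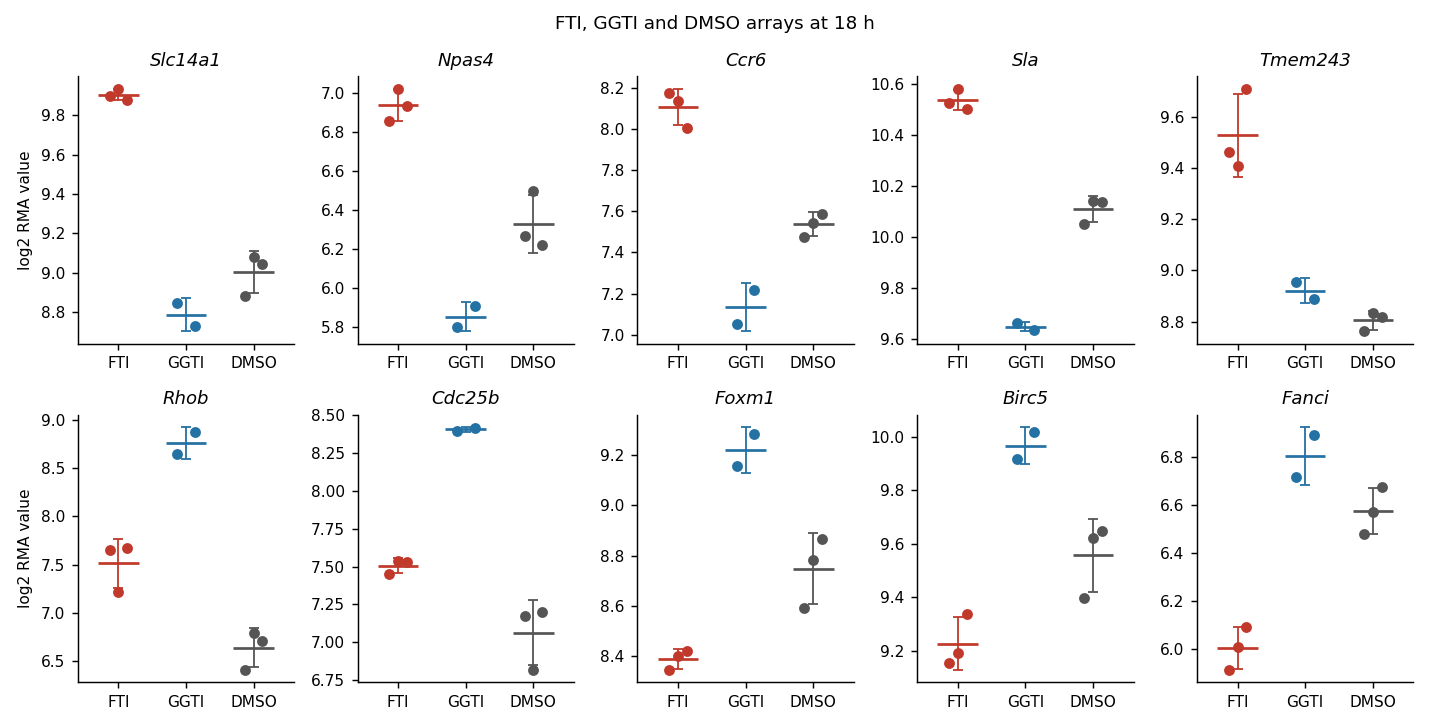
Log2 RMA values of single arrays (points), with the mean (line) and SD (bars; n = 3 for FTI_18h and DMSO_18h, n = 2 for GGTI_18h), for 10 genes in FTI_18h, GGTI_18h and DMSO_18h from left to right; each panel has its own y axis, which does not start at 0. The top row holds genes that are higher in FTI_18h than in GGTI_18h, such as Slc14a1 by 1.12, and the bottom row genes that are lower, such as Rhob by 1.25.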

How the data were processed

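The series holds 20 arrays in 7 groups, of which FTI_18h and DMSO_18h have 3 each. The authors deposited log2 values made by RMA in Affymetrix Expression Console 1.1, per the submitters' processing notes. Per the labels, RNA was amplified from 1 to 20 ng of total RNA. The number of arrays limits the precision. The deposited log2 table holds 28846 probe sets, 22206 of them for genes. Control rows were left out, 911 symbols were updated through RefSeq accessions, and for the 180 symbols with several probe sets the one with the highest mean was kept, which gave 21928 genes.

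limma 3.58.1 in R 4.3.3 was fitted with 1 mean per group over all 20 arrays (lmFit and eBayes), to 12462 genes above the array median on at least 2 arrays. Adjusted p-values are Benjamini-Hochberg values over these genes, called under 0.05, and errors are standard errors of the fit. The same fit was tested on simulated data. A mean at or below that of the negative controls was taken as background. Genes are named by size (the 20 highest and 20 lowest called changes without overlap), by smallest p in each list (up to 4), or as stated. The members and the 41 gene lists were chosen with earlier results of these data known. A few genes and lists are not reported here. Alternatives changed the filter, scaling, moderation, array weights, probe set choice and arrays fitted.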

Additional observations from a re-analysis of the deposited data

Results flagged for a closer look

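For 12 of the genes named, limma called the difference between the FTI effects at 48 h and at 18 h by a test of the difference itself (adjusted over all genes tested). The differences below are the 48 h log2 fold change minus the 18 h log2 fold change.

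Among genes that FTI raised at 18 h, the effect was larger at 48 h for Capn3 (difference 1.05, adjusted p = 0.0423), Npas4 (0.83, adjusted p = 0.00514), Slc14a1 (0.80, adjusted p = 0.0236), Ccr6 (0.76, adjusted p = 0.0243) and Ifngr2 (0.65, adjusted p = 0.00293). It was smaller for Adgre5 (-0.995, adjusted p = 0.00505) and Klf6 (-0.55, adjusted p = 0.00689), which were near 0 at 48 h. Among genes that FTI lowered at 18 h, the fall was larger at 48 h for Eomes (-2.26, adjusted p = 0.000591) and Sema7a (-1.25, adjusted p = 0.00494). For Eomes the FTI means were at or below the negative controls at both times, so background limits the size of this difference.

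Genes with no call at 18 h were called at 48 h. Ly6c1, a surface protein of T cell subsets, was at 0.31 at 18 h and -2.36 at 48 h (difference -2.67, adjusted p = 2.47e-05). Ifng, the Th1 cytokine, was at background in both groups at 18 h and at -2.18 at 48 h (difference -1.84, adjusted p = 0.000285), so neither its 18 h change nor the difference has an interpretable size. Spry1 was at -0.31 at 18 h and 0.57 at 48 h (difference 0.87, adjusted p = 0.0438).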

How the results depend on the processing

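No paired analysis was possible because the labels give no replicate numbers. Those used here only follow the order of the samples within each group. The count of 411 genes (326 higher, 85 lower) was 183 (151 and 32) without a filter on dim probe sets, 177 of them among the 411, and 36 (31 and 5) in a fit to the 6 arrays alone, 35 of them among the 411, where the spread is estimated from fewer arrays. Leaving out each array gave 151 to 428 genes, 129 to 303 higher and 20 to 125 lower. Genes called lower numbered 161 with a trended and robust variance and 51 with array weights. Genes of at least 2-fold numbered 7 with array weights, 4 in the 6-array fit and 6 to 16 without 1 array. Of 57 list genes called, 26 were left without a filter, 33 with array weights and 8 in the 6-array fit, against 89 with the trended variance and 20 to 59 without 1 array. The 955 genes at 48 h became 2124 with array weights and 524 to 769 without 1 array. The 54 genes that differed between the times became 85 with the trended variance, 87 with array weights and 28 to 61 without 1 array. FTI_18h against GGTI_18h (285) gave 436 with array weights, 69 on its own arrays and 70 to 209 without 1 array. GGTI_18h against DMSO_18h (740) gave 443 without a filter, 130 on its own arrays and 201 to 710 without 1 array. The cause of these shifts was not tested.

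All 411 genes kept their direction. Changes near 0 turned sign when 1 array was left out, with ranges of -0.001 to 0.0897 for Fnta, -0.0434 to 0.1422 for Fntb, -0.0482 to 0.1052 for Rheb, -0.0462 to 0.0146 for Hras, -0.1778 to 0.0014 for Lmnb1 and -0.2113 to 0.1024 for Lmnb2, which was at 0.0211 with array weights. The series' value table was not run, since it differs from the table used by at most 1.8e-15. Proteins with a C-terminal farnesylation box were not analysed here. Levels at or below the negative controls limit the changes of Cd55, Eomes, Galnt3, P2rx7 and Ifng.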

Other observations

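Further gene families, all picked after their values were seen, held called members. Of 21 tested Zdhhc genes, enzymes that attach palmitate to proteins, 4 were higher in FTI_18h than in DMSO_18h and 0 lower: Zdhhc1 (0.49 ± 0.13), Zdhhc9 (0.42 ± 0.10), Zdhhc18 (0.39 ± 0.09) and Zdhhc4 (0.34 ± 0.08). Of the 21, 12 had negative changes (median -0.04), and each of the 4 calls was lost without 3 to 6 of the 6 arrays (adjusted p up to 0.176). Slc28a2, a nucleoside transporter, rose by 0.70 ± 0.12 beside its near copy Slc28a2b, and these neighbours may share probe sequence. The calcium-binding genes S100a11 and S100a10 rose by 0.53 and 0.30, and Ypel5 and Ypel3 by 0.50 and 0.46. S100a10 lost its call without any 1 of the 6 arrays, Ypel3 and Ypel5 without 4 and S100a11 without 2 (adjusted p up to 0.171). Of 38 proteasome genes 34 had negative changes, as had 6155 of all 12462 genes tested, and 1 was called lower, Psmc2 (-0.38 ± 0.07). Of 19 nuclear pore genes 15 had negative changes and 2 were called lower, Nup107 (-0.43 ± 0.10) and Nup93 (-0.39 ± 0.08), each of which lost its call without 3 of the arrays (adjusted p up to 0.0984).

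Lists not described above held at most 3 calls each, where 3.30% of all genes tested were called. Cell cycle genes of G1 had 2 higher (Cdkn1b and Ccng2) and 1 lower (Skp2) of 21, and genes induced by the T cell receptor and NF-kappaB had 2 higher (Traf1 and Bcl3) and 1 lower (Irf8) of 22. The T cell receptor complex had 2 higher of 20, where 18 changes were positive. Single calls were found among p53 targets (Btg2, of 18), the BCL2 family (Bcl2, of 17), lysosome and autophagy genes (Map1lc3b, of 22), actin genes (Cnn2, 0.35, of 19), SLAM and Ly6 genes (Slamf6, of 13) and genes of G protein signalling (P2rx7, 0.49, of 18, with its DMSO_18h mean at background), all higher, and among T cell cytokines (Lta, of 11) and heat shock genes (Hsph1, of 18), both lower. Cnn2 lost its call without any 1 of the 6 arrays and P2rx7 without 5 of them (adjusted p up to 0.171 and 0.122). limma called 0 of 5 B cell markers and 0 of 7 red cell and platelet markers, with 0 of each at an unadjusted p under 0.05.

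Without a filter on dim probe sets, 6 genes below it were called, among them Dnase1l1 (0.74) and Klk1b24 (-0.51).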
